A study of Rattus norvegicus with 10 samples.

Results

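ChREBP, the glucose-responsive transcription factor encoded by Mlxipl, was followed with its dimer partner Mlx, its paralogue MondoA (Mlxip) and 6 glucose-responsive genes in islets of the rat pancreas, the clusters of endocrine cells that make insulin and glucagon. The members were all probesets annotated with the single gene symbol Mlxipl, Mlx, Mlxip, Txnip, Arrdc4, Pklr, Gpd1, Khk or Tkt. All 9 genes were represented, by 13 of the 31099 probesets in the table: 5 genes by 1 probeset and 4 genes (Mlx, Mlxip, Pklr and Gpd1) by 2. The genes were proposed with the diet differences of these arrays already known, so those differences are given as a description and nothing is read from them as a test.

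The islets came from male Wistar rats aged 7 weeks, housed one per cage, that ate a cafeteria diet (66% of calories from fat) or standard chow (8% of calories from fat) for 10 days. Each group held 5 arrays, which the labels call biological replicates. The arrays were grouped by title. The source name and description give the same diet as the title in all 10 samples, but the diet characteristic names the opposite one, and if it were right every difference between diets below would change sign. The arrays were 1-colour Affymetrix arrays of the rat transcriptome, and the deposited values are linear MAS5 signals, a summary of each gene's probes that is scaled to a common trimmed mean per array and comes here without detection calls.

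ChREBP and MondoA are helix-loop-helix leucine zipper proteins that bind DNA together with Mlx. Glucose metabolites release them from inhibition, and the dimers then act at carbohydrate response elements, which consist of a pair of E-box-like motifs a short fixed distance apart. In β cells and liver, Txnip, Arrdc4 and Pklr are textbook targets, and Txnip transcript is widely used as a readout of ChREBP and MondoA activity.

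Promoter windows were searched for such an element close to the annotated start. Txnip and Gpd1 had no window and were not searched, so nothing is said of theirs. RefSeq windows (GRCr8, 250 bases before to 50 bases after the start, 300 bases in all) were at hand for 7 of the 9 genes and were searched on both strands for a paired element (CACGNG, 5 bases of any kind, then CNCGNG) and for CACGTG, a perfect E-box. The paired element was found in the window of Pklr, 168 to 152 bases before the start, and in 0.332% of 33469 windows of all genes. The E-box was found in the windows of Arrdc4 (177 to 172 bases before the start) and Mlx (70 to 65 bases before it), and in 6.42% of all windows. The windows of Mlxipl, Mlxip, Khk and Tkt held neither string, which says only that these letters are not in those windows. The 3 stretches are printed because they hold these matches, which are in capitals, and none of the matches overlaps another.
Pklr, chr2:176841056-176841152, plus strand: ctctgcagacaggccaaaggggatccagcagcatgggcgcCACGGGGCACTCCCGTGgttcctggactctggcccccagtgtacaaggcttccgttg
Arrdc4, chr1:131793557-131793642, minus strand: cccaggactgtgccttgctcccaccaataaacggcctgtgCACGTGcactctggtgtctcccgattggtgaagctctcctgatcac
Mlx, chr10:86519776-86519861, plus strand: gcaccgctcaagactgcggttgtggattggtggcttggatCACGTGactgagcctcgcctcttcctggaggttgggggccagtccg

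Array-wide measures were similar in the groups but not identical. Median signals ran from 154.8 to 173.2 in cafeteria arrays and from 150.9 to 171.9 in standard arrays, and r between any 2 arrays was 0.955 to 0.982 over the probesets tested. The islet endocrine marker list (17 of 18 markers measured, among them Ins1, Ins2, Gcg and Sst in the top 1% of probesets by mean signal) fitted the labelled tissue. Its mean log2 value ran from 13.6 to 13.9 in cafeteria arrays and from 13.5 to 13.6 in standard arrays (difference 0.12, exact two-sided permutation p = 0.0397, adjusted over 8 marker lists 0.317), with cafeteria replicate 5 the highest. No list had an exact permutation p under 0.05 (0 of 8) without standard replicate 3, 4 or 5 or without cafeteria replicate 3 or 5. The 3 prime to 5 prime ratio of the GAPDH control probesets, a measure of RNA integrity, was 0.964 to 1.11 in cafeteria arrays and 1.00 to 1.26 in standard arrays (exact two-sided permutation p = 0.0238). In whole islets, fewer cells of a type and less RNA per cell cannot be told apart.

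Mlxipl signal was higher in the cafeteria group, and no cafeteria array overlapped a standard array. Probeset 1368614_at read 1016, 974, 1038, 946 and 909 in cafeteria replicates 1 to 5, against 753, 651, 827, 762 and 774 in standard replicates 1 to 5. The means were 977 ± 51.9 in cafeteria arrays and 753 ± 64.2 in standard arrays (SD, n = 5 each), a ratio of 1.30. The lowest cafeteria array lay above the highest standard array. On the log2(signal + 14.15) scale, which understates changes of dim genes, the difference was 0.37 with an SE of 0.082 and a 95% confidence interval from 0.19 to 0.55. With the GAPDH ratio or the immune marker index as a covariate it was 0.45. This was the difference by which the gene was chosen.

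The other members did not show that separation. Of the 12 member probesets with a mean above the signal filter (the 40th percentile of all non-control probesets), Mlxipl was the 1 with non-overlapping groups, against 2.44% of the 18625 probesets tested (0.988% higher and 1.45% lower in the cafeteria group). With limma, 0 of the 12 had an adjusted p under 0.05 (0% of all tested) and 2, Mlxipl and the brighter Pklr probeset, had an unadjusted p under 0.05 (10.4% of all tested, 5.51% higher and 4.91% lower). These shares stand beside contrasts that chose the members, and nothing is read from them. Taking the brightest probeset of each of the 8 other genes, 3 were higher and 5 lower in the cafeteria group, the median log2 difference was −0.010 (0.0056 over all tested probesets), and 7 of 8 confidence intervals included 0.

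**Figure D1:**
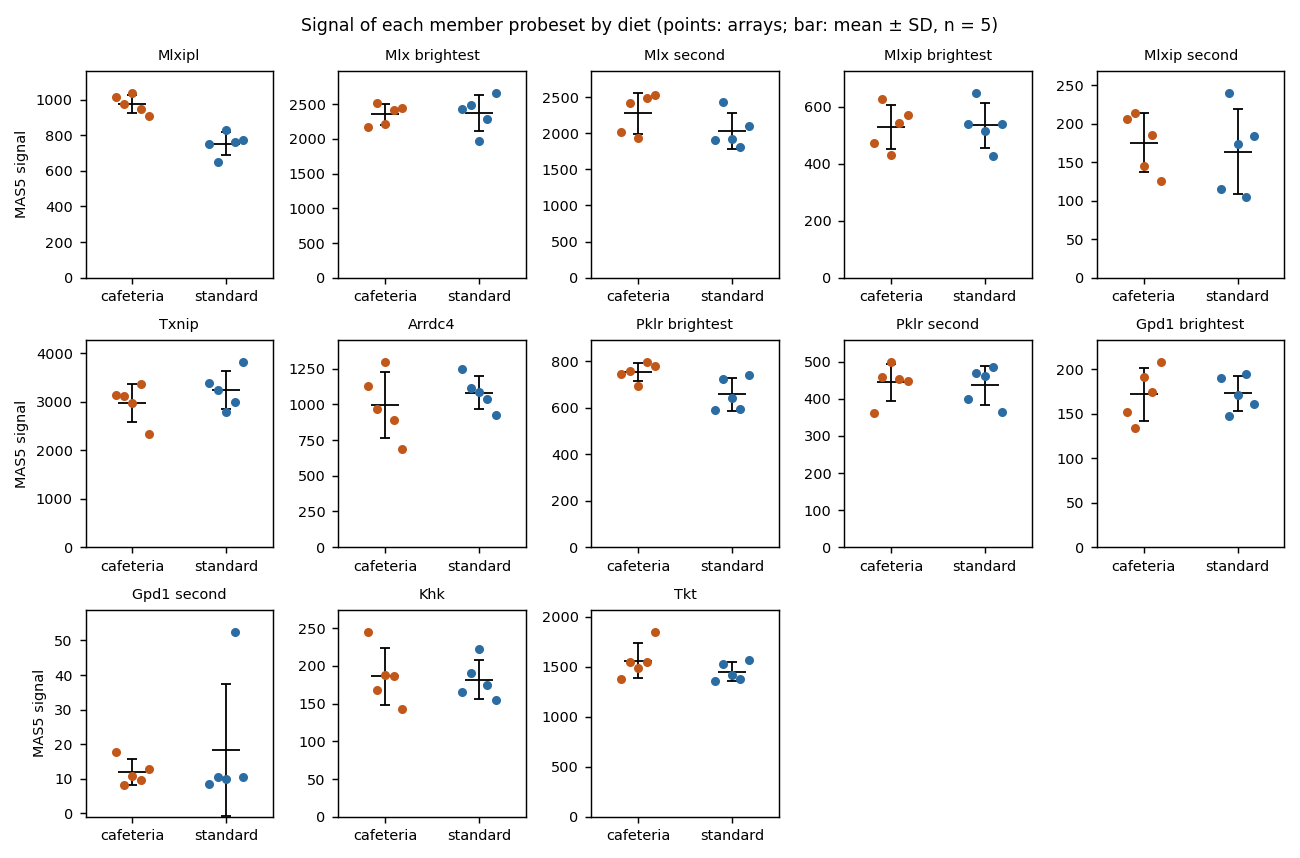
MAS5 signal (linear vertical axes) of each of the 13 member probesets in cafeteria arrays (orange, left) and standard arrays (blue, right), with 1 point per array in replicate order and a bar for mean ± SD (n = 5). The cafeteria points of Mlxipl, from 909 to 1038, lie above all standard points, from 651 to 827, while the points of the other probesets overlap between diets.

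The partner Mlx and the paralogue Mlxip had differences near 0 in their brightest probesets. For Mlx, probeset 1371929_at read 2172, 2523, 2221, 2422 and 2442 in cafeteria replicates 1 to 5, against 2433, 2485, 1975, 2291 and 2664 in standard replicates 1 to 5. The groups overlapped over most of their range, with a log2 difference of −0.0035 (95% confidence interval −0.21 to 0.20). The second Mlx probeset (1385443_at) differed by 0.16 (−0.085 to 0.40), and its groups overlapped too.

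For Mlxip the brightest probeset (1374351_at) averaged 528.5 ± 78.5 in cafeteria arrays and 534.6 ± 78.9 in standard arrays (SD, n = 5 each), with a log2 difference of −0.016 (95% confidence interval −0.30 to 0.26). The second Mlxip probeset was dim, at 175.3 ± 38.5 in cafeteria arrays and 163.9 ± 55.1 in standard arrays (SD, n = 5 each), with a log2 difference of 0.12 (−0.35 to 0.60). Neither Mlxip probeset separated the diets, and the wide interval of the second includes a difference as large as that of Mlxipl. So do the intervals of the second Mlx probeset (−0.085 to 0.40) and the brightest Pklr probeset (0.0070 to 0.39).

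Txnip, which encodes an α-arrestin that binds thioredoxin and restrains glucose uptake, had a lower mean in the cafeteria group, within the spread between arrays. Probeset 1371131_a_at read 3129.8, 3109, 2982, 3362 and 2325 in cafeteria replicates 1 to 5, against 3384, 3233, 2779, 2989 and 3810.25 in standard replicates 1 to 5. The groups overlapped, with cafeteria replicate 5 the lowest of all arrays and standard replicate 5 the highest. The means were 2982 ± 392 in cafeteria arrays and 3239 ± 394 in standard arrays (SD, n = 5 each), and the log2 difference was −0.12 (SE 0.118, 95% confidence interval −0.38 to 0.14). Without cafeteria replicate 5 it was −0.035, and with the GAPDH ratio as a covariate it was −0.29.

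Arrdc4, another glucose-induced α-arrestin gene, also had a lower mean within the spread. Probeset 1391808_at read 1128, 967, 1293, 893 and 686 in cafeteria replicates 1 to 5, against 1245, 1111, 1084, 1036 and 927 in standard replicates 1 to 5. The cafeteria arrays spread on both sides of the standard arrays, and cafeteria replicate 5 was again the lowest. The log2 difference was −0.14 (SE 0.154, 95% confidence interval −0.48 to 0.19). It was −0.021 without cafeteria replicate 5, −0.25 without cafeteria replicate 3 and −0.28 with the GAPDH ratio as a covariate.

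Pklr, the pyruvate kinase gene of liver and red blood cells and the classical ChREBP target, was represented by a pair of probesets that gave different values. The brightest (1368651_at) read 746, 759, 695, 796 and 779.6 in cafeteria replicates 1 to 5, against 589, 724, 642, 596 and 739.8 in standard replicates 1 to 5. The cafeteria arrays were mostly higher, but the lowest of them lay below 2 standard arrays. The log2 difference was 0.20 (SE 0.087, 95% confidence interval 0.0070 to 0.39). With the GAPDH ratio as a covariate it was 0.10. The second Pklr probeset averaged 444 ± 50.7 in cafeteria arrays and 436 ± 51.9 in standard arrays (SD, n = 5 each), a log2 difference of 0.025 (−0.22 to 0.26). The red blood cell marker list (6 of 9 measured) had mean log2 values of 7.04 to 7.20 in cafeteria arrays and 6.79 to 7.28 in standard arrays, with Hbb at percentile 97.8 of mean signal and Epb42 at 3.61; its part in the Pklr signal was not tested.

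The enzymes of fructose, glycerol phosphate and pentose metabolism overlapped between diets. Khk, the ketohexokinase that phosphorylates fructose, read 245, 169, 188, 186 and 143 in cafeteria replicates 1 to 5, against 165, 190.05, 222, 175 and 155 in standard replicates 1 to 5. Cafeteria replicate 1 was the highest array and cafeteria replicate 5 the lowest, so the standard range lay inside the cafeteria range, and the log2 difference was 0.023 (95% confidence interval −0.28 to 0.32). The brightest probeset of Gpd1, the cytosolic glycerol-3-phosphate dehydrogenase, averaged 172 ± 29.5 in cafeteria arrays and 173 ± 19.7 in standard arrays (SD, n = 5 each), with a log2 difference of −0.018 (−0.29 to 0.25).

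The second Gpd1 probeset was the member below the signal filter, at 8.26 to 17.9 in cafeteria arrays and 8.50 to 52.6 in standard arrays, a range set by standard replicate 4. Adipocytes express Gpd1 strongly. Their marker list (10 of 11 measured) had mean log2 values of 6.64 to 7.29 in cafeteria arrays and 6.83 to 7.18 in standard arrays, and its markers ran from percentile 2.23 of mean signal (Cidec) to 87.7 (Lpl), with Adipoq at 23.6, Plin1 at 22.8 and Fabp4 at 83.6; none of its measured markers was at 0. Tkt, the transketolase of the pentose phosphate pathway, averaged 1561 ± 175 in cafeteria arrays and 1450.1 ± 92.7 in standard arrays (SD, n = 5 each). Its log2 difference was 0.10 (95% confidence interval −0.098 to 0.30), and 0.039 without cafeteria replicate 5, which was the highest array at 1848.

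**Figure D2:**
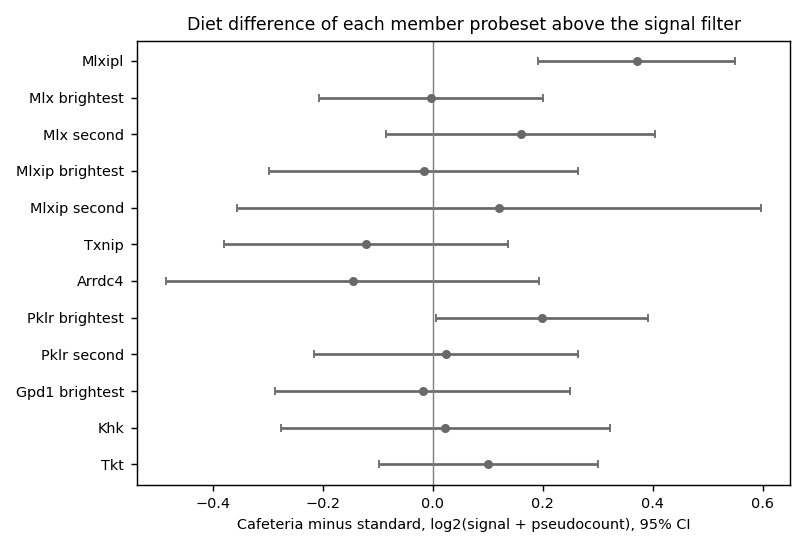
Log2 difference, cafeteria minus standard (horizontal axis), of the 12 member probesets above the signal filter, with limma's 95% confidence intervals as bars. Mlxipl at 0.37 and the brighter Pklr probeset at 0.20 have intervals above 0, and the intervals of the remaining probesets cross it.

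Whether members followed Mlxipl from array to array was asked after subtracting each diet's mean, so that the diet difference by which Mlxipl was chosen was not used. Among the brightest probesets of the 8 other genes, 4 correlated positively and 4 negatively with Mlxipl over the 10 arrays, with r from −0.667 to 0.392 and a median of −0.211 (52% of all probesets had r above 0). In limma fits with diet in the model, 0 of 11 other member probesets were associated with Mlxipl at an adjusted p under 0.05 (0% of 18624 tested), and 2 had an unadjusted p under 0.05, both negative (8.24% of all tested, 5.32% positive and 2.92% negative). Against Txnip, 0 of 11 members passed the adjusted test (0% of all tested) and 0 had an unadjusted p under 0.05 (7.9% of all tested, 3.54% positive and 4.37% negative).

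The targets gave no common direction. Txnip had r = 0.0648 with Mlxipl (exact permutation p = 0.858 within diets, two-sided; Spearman rho 0.0788, exact p = 0.844; limma adjusted p over all probesets 0.973). Arrdc4 had r = 0.392 (exact p = 0.199; rho 0.430, exact p = 0.236; adjusted p 0.753), and Khk had r = 0.390 (exact p = 0.252; rho 0.406, exact p = 0.279; adjusted p 0.761). Without the 2 arrays whose Mlxipl deviation lay farthest from the median, standard replicates 2 and 3, the r of Arrdc4 was 0.821 (exact p = 0.0431, n = 8), that of Khk 0.681 (exact p = 0.175) and that of Txnip 0.489 (exact p = 0.321).

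The brightest Pklr probeset had r = −0.487 (exact p = 0.267; rho −0.455, exact p = 0.238; adjusted p 0.757), against the sign of its diet difference, and Tkt had r = −0.535 (exact p = 0.0867; rho −0.539, exact p = 0.140; adjusted p 0.720). Without the same 2 arrays these values were −0.276 (exact p = 0.353) and −0.663 (exact p = 0.125). Gpd1 had r = 0.108 (exact p = 0.750; rho 0.0546, exact p = 0.898; adjusted p 0.950), and −0.343 without the 2 arrays (exact p = 0.517). Ranked among 10233 named genes by r with Mlxipl, Arrdc4 stood at 1876, Khk at 1892, Gpd1 at 4002, Txnip at 4383, Pklr at 8891 and Tkt at 9180, counted from the most positive.

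The dimer partner and the paralogue had negative values of r with Mlxipl in the deposited scaling. The second Mlx probeset had r = −0.811 (exact p = 0.0104; rho −0.818, exact p = 0.0152; adjusted p 0.508), and the brightest had r = −0.594 (exact p = 0.141; rho −0.636, exact p = 0.0684; adjusted p 0.674). The brightest Mlxip probeset had r = −0.667 (exact p = 0.0537; rho −0.782, exact p = 0.0190; adjusted p 0.592), and the second had r = −0.214 (exact p = 0.664; adjusted p 0.874). Without standard replicates 2 and 3 the 3 larger values were −0.805 (exact p = 0.0694), −0.496 (exact p = 0.239) and −0.611 (exact p = 0.169). That of the second Mlxip probeset turned positive, at 0.342 (exact p = 0.404). Of the 12 relations with Mlxipl, 1 had an exact p of Pearson's r under 0.05, and of the 11 in the limma fit 0 passed adjustment over all probesets.

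**Figure D3:**
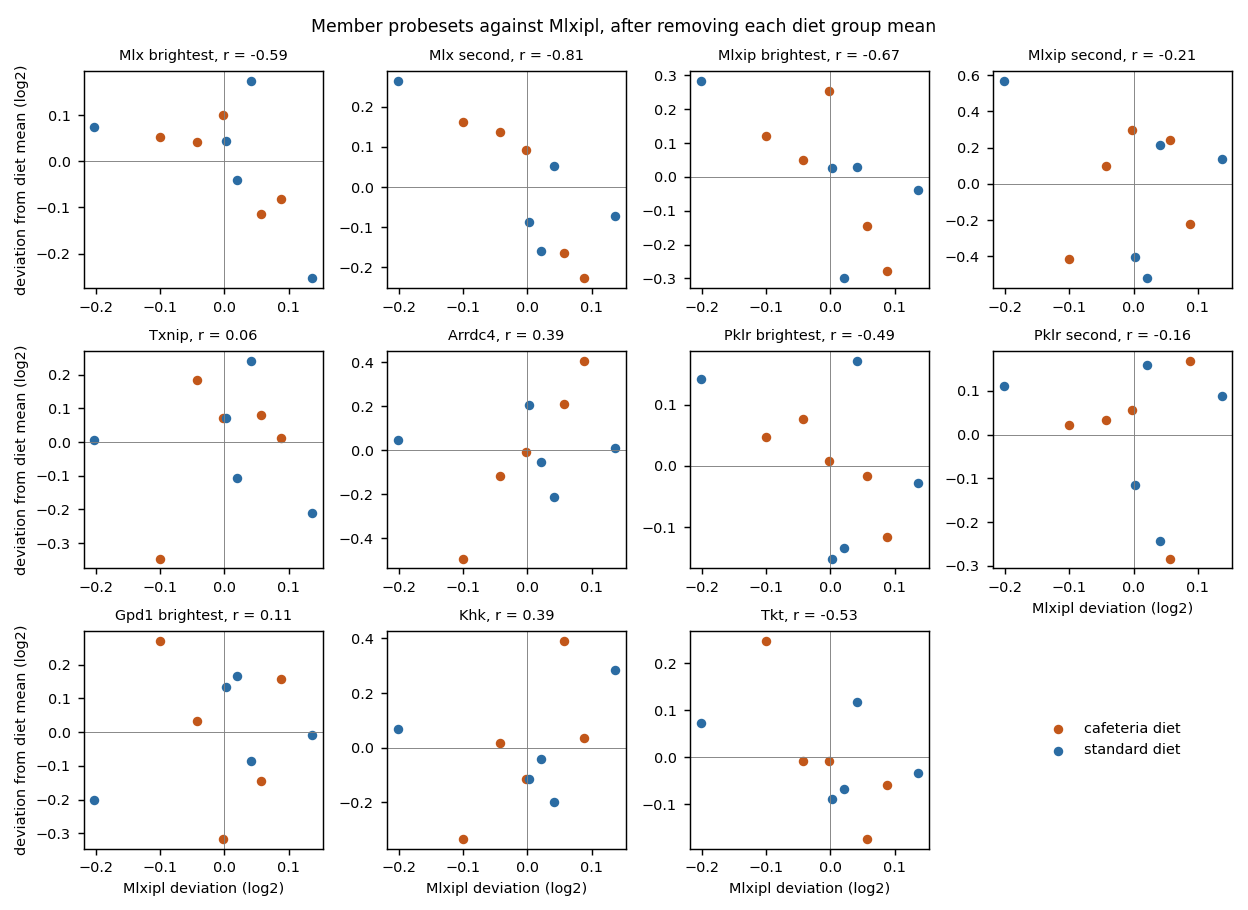
Deviation from the diet mean on the log2 scale of 11 member probesets (vertical axes) against the deviation of Mlxipl (horizontal axes), with 5 cafeteria arrays in orange and 5 standard arrays in blue. Points fall from left to right for the second Mlx probeset (r = −0.81) and scatter for Txnip (r = 0.06).

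The array median moved with Mlxipl, although all arrays were scaled to a common trimmed mean. The median log2 signal of the array, taken as a deviation from the diet mean, had r = 0.647 with Mlxipl, and the 3 arrays with the highest medians (cafeteria replicates 1 and 3 and standard replicate 3) also had the 3 highest Mlxipl deviations. It had r = −0.902 with the brightest Mlx probeset, −0.689 with the second Mlx probeset, −0.651 with Tkt, 0.688 with Arrdc4 and 0.826 with Khk. After each array was centred on its own median, the r with Mlxipl was 0.0228 for the brightest Mlx probeset, −0.339 for the second and −0.325 for Mlxip. It was −0.0995 for Arrdc4, −0.269 for Khk, −0.0762 for Tkt, −0.144 for Pklr, 0.159 for Gpd1 and 0.233 for Txnip. With quantile normalization instead, r was −0.601 for the brightest Mlx probeset, −0.803 for the second and −0.675 for Mlxip. It was 0.370 for Arrdc4, 0.287 for Khk, −0.461 for Tkt, −0.541 for Pklr, −0.100 for Gpd1 and 0.0795 for Txnip. The values of r thus depended on which scaling was used. Over all probesets, 1534 had an unadjusted p under 0.05 against Mlxipl as deposited, 593 after median centring and 1643 after quantile normalization. The diet difference of Mlxipl itself was 0.33 after centring.

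**Figure D4:**
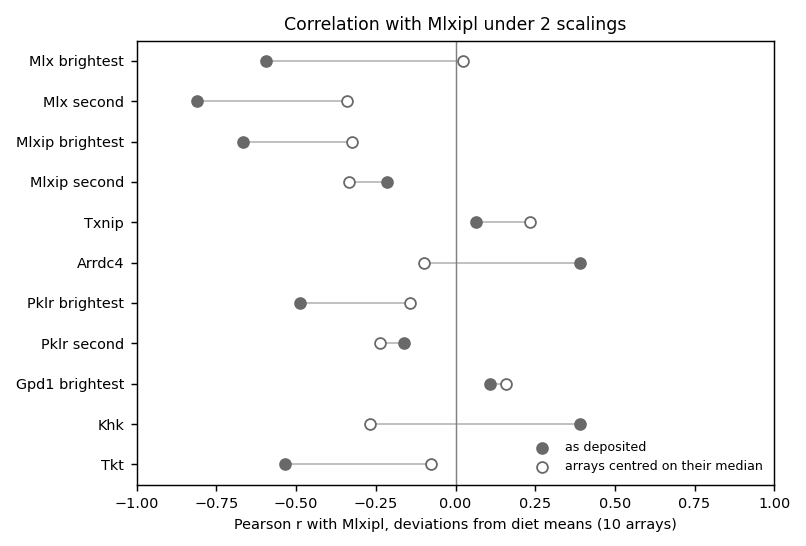
Pearson r with Mlxipl over the deviations of 10 arrays from their diet means (horizontal axis), for 11 member probesets as deposited (filled) and after centring each array on its median (open). The values of the second Mlx probeset, the brightest Mlxip and Pklr probesets and Tkt move towards 0. Those of the brightest Mlx probeset (from −0.594 to 0.0228), Arrdc4 (from 0.392 to −0.0995) and Khk (from 0.390 to −0.269) move across it. Those of Txnip, Gpd1 and the second Mlxip and Pklr probesets move away from 0.

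Other measures also moved with Mlxipl within diets. The immune marker list (13 of 13 measured, mean log2 values 7.62 to 9.09 in cafeteria arrays and 7.66 to 9.42 in standard arrays) had r = 0.675 with Mlxipl and the red blood cell list r = −0.655. With the immune index as a covariate the r with Mlxipl was −0.716 for the second Mlx probeset, −0.695 for the brightest, −0.545 for Mlxip, 0.723 for Khk and 0.00157 for Txnip. The log2 GAPDH ratio had r = 0.422 with Mlxipl and −0.497 with Txnip. With it as a covariate the r with Mlxipl was 0.582 for Arrdc4, 0.537 for Khk and 0.349 for Txnip. It was −0.545 for the brightest Mlx probeset, −0.641 for Mlxip, −0.617 for Tkt, −0.366 for Pklr and −0.187 for Gpd1.

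Txnip and Arrdc4, the pair most often described as moving together with glucose, had r = 0.343 with each other within diets (exact permutation p = 0.409, two-sided; rho 0.0667, exact p = 0.876; limma adjusted p 0.835). Cafeteria replicate 5 was lowest for both genes, and r was −0.408 without it, 0.614 without standard replicate 5 and 0.702 with the acinar index as a covariate. Without cafeteria replicate 5 and standard replicate 3, the 2 arrays farthest from the Txnip median, r was −0.512 (exact p = 0.189). Of the brightest probesets of 7 members, 5 had a positive r with Txnip (51.2% of all probesets). The values lay between −0.497 (Gpd1) and 0.454 (Mlx, and 0.839 without cafeteria replicate 5). Second probesets gave other values. That of Mlx had r = 0.0028 with Txnip, and the mean of both Mlx probesets 0.219. The second Pklr probeset had r = −0.471, against 0.267 for the brightest. The second Mlxip probeset had r = 0.431, against 0.0689 for the brightest. The islet endocrine index had r = −0.768 with Txnip, and its part in these values was not tested.

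Pairs of probesets for the same gene were also correlated, in the deposited scaling. The Mlx probesets had r = 0.607 with each other within diets (exact permutation p = 0.0769; rho 0.624, exact p = 0.0704) and the Mlxip probesets r = 0.561 (exact p = 0.112; rho 0.527, exact p = 0.148). Both Mlx probesets followed the array median (r = −0.902 and −0.689). Their r with each other therefore cannot be told apart from shared scaling, and the part of scaling in it was not tested. The Pklr probesets had r = −0.266 (exact p = 0.493; rho −0.273, exact p = 0.457), so what is said of Pklr depends on the probeset. The Gpd1 probesets, of which the second was below the signal filter, had r = 0.318 (exact permutation p = 0.333). Over all 36 pairs of the 9 genes, 17 were positive and the median r was −0.169; the most negative pair was Arrdc4 with Tkt (r = −0.818) and the most positive Mlxip with Pklr (r = 0.644).

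The genes whose within-diet pattern was most like that of Mlxipl lay outside the set. Over the 10 arrays the most positive were Gda, which encodes guanine deaminase (r = 0.961, and 0.879 after median centring), Mcmbp, a binding partner of the replicative helicase (0.956 and 0.908), Rfx7 (0.930 and 0.882), the kinase gene Dyrk2 (0.928 and 0.886) and the ubiquitin ligase gene Trim25 (0.923 and 0.762). The most negative were Uqcrfs1, the Rieske subunit of respiratory complex III (−0.923 and −0.479), Pcid2 (−0.916 and −0.398), Slc3a2 (−0.915 and −0.308), Acot13 (−0.909 and −0.731) and Zdhhc1 (−0.906 and −0.542). None passed limma's adjusted test (adjusted p from 0.489 to 0.622).

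Other genes of the pathway were read from 9 lists, taking the brightest probeset of each gene and the same limma fit of the diet difference. In all of them 0 genes had an adjusted p under 0.05 (0% of all tested), and the counts stand beside 9578 probesets higher and 9047 lower among the 18625 tested, of which 10.4% had an unadjusted p under 0.05. Among Max and Mlx network partners, bHLH proteins that dimerise with Max, some of them also with Mlx, 8 of 10 passed the signal filter, 2 were higher and 6 lower, and the median log2 difference was −0.12. With an unadjusted p under 0.05 in 3 of 8, Mxd4, an Mlx-binding repressor, was at 0.29 (SE 0.106), Mnt at −0.22 (SE 0.088) and Mycl at −0.37 (SE 0.110), with adjusted p of 0.398 to 0.444. Mnt, which also dimerises with Mlx, averaged 975 ± 79.6 in cafeteria arrays and 1141 ± 101 in standard arrays (SD, n = 5 each).

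Genes that act on ChREBP expression or activity numbered 21 above the filter, 7 higher and 14 lower (median −0.071). Usf2, a factor that binds E-boxes, was at −0.36 (SE 0.103, adjusted p 0.398), and Ppp2cb, a catalytic subunit of protein phosphatase 2A, at −0.19 (SE 0.076, adjusted p 0.444). Nr1h3, which encodes the sterol receptor LXRα, was dim and at 0.36 (SE 0.167, adjusted p 0.481), and the coactivator gene Ep300 was at −0.24 (SE 0.119, adjusted p 0.497).

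Genes of glucose uptake and breakdown showed no common direction. For glucose entry and phosphorylation, 5 of 7 were higher and 2 lower (median 0.063), with the transporter genes Slc2a2 at 0.083 (SE 0.072) and Slc2a1 at −0.13 (SE 0.083), and 0 had an unadjusted p under 0.05. Among 11 glycolytic enzyme genes 6 were higher and 5 lower (median 0.032). Eno1 was at 0.19 (SE 0.085, adjusted p 0.468), Aldoc at −0.30 (SE 0.156) and Ldha at −0.32 (SE 0.190).

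Within diets, 9 of these 11 glycolytic genes had a negative r with Mlxipl as deposited (48% of all probesets had one), with a median r of −0.472. After median centring 5 of 11 were negative (50.9% of all probesets) and the median r was 0.0042. Tpi1 had the most negative value of the list as deposited (r = −0.888, adjusted p 0.489), and −0.333 after centring. Ldha had the most positive (r = 0.580, limma adjusted p 0.612), and 0.688 after centring. From the glucose entry list, Pfkfb2, which makes and breaks the allosteric activator of phosphofructokinase, had r = −0.856 (adjusted p 0.489), and −0.517 after centring. In that list 5 of 7 genes had a negative r as deposited and 2 of 7 after centring, with a median r of 0.025 after centring.

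The pentose phosphate list had 3 of 9 genes higher and 6 lower (median −0.020). Prps2, a phosphoribosyl pyrophosphate synthetase, was at −0.46 (SE 0.094, adjusted p 0.398), with signals of 539 ± 57.9 in cafeteria arrays and 747 ± 62.2 in standard arrays (SD, n = 5 each). Pgd was at 0.19 (SE 0.102). In fructose, polyol and glycerol phosphate metabolism 4 of 7 were higher and 3 lower (median 0.031), with the glycerol kinase gene Gk at −0.46 (SE 0.157, adjusted p 0.412), the phosphoglycolate phosphatase gene Pgp at 0.24 (SE 0.086, adjusted p 0.422) and the fructose transporter gene Slc2a5 at 0.23 (SE 0.132). Within diets, 8 of 9 pentose phosphate genes had a negative r with Mlxipl as deposited and 6 of 9 after median centring. In the fructose, polyol and glycerol phosphate list, 6 of 7 were negative as deposited and 6 of 7 after centring. The shares of all probesets were 48% and 50.9%. The median r after centring was −0.031 for the pentose phosphate list and −0.20 for the fructose list.

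Lipogenic targets, the genes through which ChREBP is known to drive fat synthesis in liver, showed no common direction. Of 21 listed, 13 passed the filter, 8 were higher and 5 lower, the median was 0.012, and 0 had an unadjusted p under 0.05. The fatty acid synthase gene Fasn was at 0.076 (SE 0.067), Acly at 0.074 (SE 0.077), Me1 at 0.13 (SE 0.098) and the lipase gene Pnpla3 at −0.25 (SE 0.137). Within diets, 8 of 13 had a negative r with Mlxipl as deposited and 4 of 13 after median centring (48% and 50.9% of all probesets). The median r was −0.081 as deposited and 0.12 after centring. The deposited values ran from −0.621 (Mid1ip1) to 0.798 (Fasn, limma adjusted p 0.740). After centring, r was −0.0455 for Mid1ip1 and 0.561 for Fasn.

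Of 14 other glucose-induced targets 8 were higher and 6 lower (median 0.018), with the clock repressor Nr1d2 at −0.29 (SE 0.151) and Ccnd2 at 0.16 (SE 0.092), and 0 had an unadjusted p under 0.05. Within diets, 8 of these 14 had a negative r with Mlxipl as deposited and 4 of 14 after median centring (48% and 50.9% of all probesets). The median r was −0.11 as deposited and 0.087 after centring. The deposited values ran from −0.449 (Bhlhe40) to 0.640 (Cpt1a, limma adjusted p 0.611). After centring, r was −0.397 for Bhlhe40 and 0.754 for Cpt1a. Among 11 genes of other α-arrestins and the thioredoxin system 5 were higher and 6 lower (median −0.036). Arrdc3, an α-arrestin related to Txnip, was at −0.25 (SE 0.069, adjusted p 0.398), with signals of 1025.4 ± 44.8 in cafeteria arrays and 1221 ± 57.8 in standard arrays (SD, n = 5 each). The stress gene Ddit4 was at −0.20 (SE 0.111). In this last list 8 of 11 genes had a negative r with Mlxipl as deposited and 6 of 11 after centring. Among Max and Mlx network partners 3 of 8 and 4 of 8 did. Among genes that act on ChREBP 9 of 21 and 7 of 21 did. Over all probesets the shares were 48% and 50.9%. After centring the median r was −0.079 for the α-arrestin and thioredoxin list, 0.091 for Max and Mlx network partners and 0.13 for genes that act on ChREBP.

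**Figure D5:**
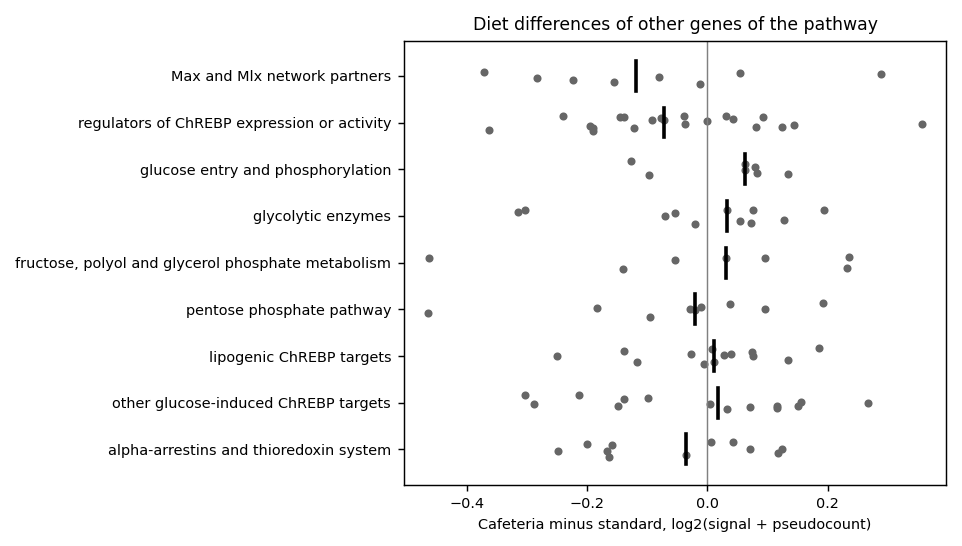
Log2 difference, cafeteria minus standard (horizontal axis), of each gene above the signal filter in 9 lists of the ChREBP pathway, with 1 point per gene and a vertical bar at the list median. The medians lie between −0.12 (Max and Mlx network partners) and 0.063 (glucose entry and phosphorylation).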

How the data were processed

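Islet RNA of 10 samples (5 cafeteria diet, 5 standard diet) was measured on 1-colour arrays. The deposited table holds intensity on a linear scale. MAS5 made it, per the submitters' processing notes, with no version stated; the genome build is not given in the sources used here. Of 31099 probesets 57 were controls. Signals were transformed as log2(signal + 14.15), the pseudocount being the 10th percentile of all values, and 18625 of 31042 non-control probesets with a mean above the 40th percentile were tested.

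Symbols came from the platform annotation; 14038 tested probesets had 1 symbol. The brightest probeset stood for a gene. limma 3.58.1 in R 4.3.3 (lmFit and eBayes) gave the diet difference and, with diet in the model, the association with Mlxipl or Txnip, adjusted by Benjamini-Hochberg over all tested probesets. Member correlations used deviations from diet means with exact permutation within diets (14400 pairings); 12 relations with Mlxipl and 11 with Txnip were computed. Marker indices were compared over 252 divisions, with a smallest p of 0.00794. The number of arrays limits the precision. The methods were tested on simulated data. Members and lists were chosen with earlier results of these data known. The genes named are all members, up to 4 genes per list with the lowest p, and the 5 at each end by r with Mlxipl. Tpi1, Pfkfb2, Fasn, Acly and Cpt1a were named after their values were seen.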

Additional observations from a re-analysis of the deposited data

Results flagged for a closer look

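For 68 measures (probesets, marker indices and the GAPDH ratio), the 5 arrays of each diet were searched for a lone array with Dixon's ratio. It singled out an array in 13 of 136 sets, where chance alone would give 6.8 (about 1 in 20). Values below are on the log2 scale. One was a member: the second Gpd1 probeset was highest in standard replicate 4 at 6.06, against 4.50 to 4.62 in the other standard arrays. Cafeteria replicate 5 was lowest for Ep300 at 10.72 and highest for Pgp at 9.691 and for the islet endocrine index at 13.91. Cafeteria replicate 3 was lowest for Aldoc at 6.66, Bhlhe40 at 6.014 and Zdhhc1 at 8.50, and highest for the immune index at 9.091. Ccnd2 was lowest in cafeteria replicate 4 at 14.04, and the adipocyte index was highest in cafeteria replicate 1 at 7.287. Among standard arrays, G6pc3 was highest in replicate 5 at 10.34, Ddit4 was lowest in replicate 3 at 9.295 and Dyrk2 was lowest in replicate 2 at 10.40.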

How the results depend on the processing

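Up to 13 other settings were run, and each array was left out in turn. The diet difference of Mlxipl stayed between 0.33 and 0.45 under the settings and between 0.32 and 0.41 without an array. Of the member differences under the settings, 104 moved by less than the spread between arrays and 1 by more: that of Gpd1, which was 0.19 once the GAPDH ratio was a covariate. Differences near 0 also changed sign, which that count does not register. They ran from −0.073 to 0.078 for Mlx, −0.12 to 0.052 for Mlxip, −0.063 to 0.024 for Khk and −0.056 to 0.19 for Gpd1. Those of Mlxipl, Txnip, Arrdc4, Pklr and Tkt kept their sign. The count of probesets past the adjusted threshold was 0 for the diet difference and for both associations under every setting, and 0 to 1 for the diet difference without an array, the 1 being Emp1 without standard replicate 2 (0.73, limma adjusted p = 0.0386), named after its value was seen. At an unadjusted p under 0.05, 997 probesets rather than 1534 were associated with Mlxipl without standard replicate 3, and 871 rather than 1472 with Txnip under the GAPDH covariate.

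Under the settings, 13 values of r with Mlxipl and 8 with Txnip changed sign, while 100 and 80 did not; none of the changed ones passed the adjusted threshold. With median centring the r with Mlxipl was 0.0228 for Mlx, −0.0995 for Arrdc4 and −0.269 for Khk, and the r with Txnip was 0.125 for Tkt and −0.0516 for Khk. Gpd1 had r with Mlxipl of −0.100 with quantile normalization, −0.187 with the GAPDH ratio and −0.287 with the immune index as a covariate. The r of Mlxip with Txnip was −0.0630 with the GAPDH ratio and −0.0247 with the acinar index, that of Khk −0.0137 with the GAPDH ratio, and that of Pklr −0.269 with the mean of its probesets. With diet not removed, r with Mlxipl was −0.277 for Txnip, 0.149 for Tkt, −0.0949 for Arrdc4, 0.455 for Pklr and 0.0870 for the second Mlx probeset, and r with Txnip was −0.0490 for Pklr. The cause of these changes was not tested.

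Without one array, r with Mlxipl ran from −0.335 to 0.391 for Txnip and from −0.358 to 0.406 for Gpd1. The r with Txnip ran from −0.660 to 0.503 for Tkt, −0.408 to 0.614 for Arrdc4, −0.0325 to 0.558 for Pklr, −0.0714 to 0.346 for Mlxip and −0.580 to 0.394 for Khk.

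Same-numbered arrays of the diets had deviations that correlated with r from −0.0017 to 0.296, above 0.1 in 3 of 5 pairs, and 5 of 10 samples correlated best with their own number. The labels do not say what a number marks, so the numbers were not taken as pairing, and whether they do was not settled. With the replicate block, 0 probesets passed for the diet difference (2349 rather than 1941 at an unadjusted p under 0.05), 0 were associated with Mlxipl (757 rather than 1534) or Txnip (1946 rather than 1472), and r with Mlxipl was 0.00080 for Mlx, −0.653 for Gpd1 and −0.849 for Tkt, while r with Txnip was −0.0266 for Mlxip and 0.675 for Arrdc4. The count of marker indices with an exact permutation p under 0.05 was 1 (islet endocrine), 0 with quantile normalization or median centring, and 0 to 2 without an array; these settings were chosen after seeing the data. No other Mlxipl probeset was there to serve as index, and background correction and slide could not be varied. Khk and Gpd1 have no value under the filter at the 70th percentile.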
